A study of Mus musculus with 9 samples.

Results

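The Groucho/TLE corepressor family was examined by bulk RNA-seq of cortices from postnatal day 0 (P0) mice. The members were the 6 genes whose symbol in the deposited table was Tle1, Tle2, Tle3, Tle4, Tle6 or Aes, out of 24624 genes in all, and each symbol stood in 1 row. The 3 genotypes compared are given here as the labels name them. There were 3 Fezf2+/+ libraries (bc201, bc202 and bc203), 4 Fezf2-/- libraries (bc204 to bc207) and 2 Fezf2-/-; Fezf2-EnR libraries (bc208 and bc209), each made from the cortical hemispheres of a single pup, so that p-values measure the spread between pups. In the Fezf2-/- genotype both alleles of Fezf2, a zinc-finger transcription factor of deep-layer neurons, were null alleles that carried a placental alkaline phosphatase gene under the Fezf2 promoter. The Fezf2-/-; Fezf2-EnR pups carried the same null alleles and a bacterial artificial chromosome transgene from a single transgenic line, in which the DNA-binding domain of FEZF2 is joined to the repressor domain of engrailed and placed at the Fezf2 start codon. The transgene therefore reached only the cells that use this Fezf2 regulatory region. The pups came from 3 litters, and no litter held all 3 genotypes. Litter m1 gave bc201, bc202, bc205 and bc206. Litter m2 gave bc203 and bc209. Litter m3 gave bc204, bc207 and bc208.

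Proteins of the Groucho/TLE family do not bind DNA. They are brought to genes by transcription factors that carry short peptide motifs such as EH1, which the WD40 repeats at the C terminus of the TLE protein recognise, and they repress transcription together with histone deacetylases. Tle1, Tle2, Tle3 and Tle4 encode the full-length proteins, Tle6 a divergent relative known from the maternal complex of the oocyte, and Aes a short protein that lacks the WD40 repeats and can interfere with the full-length ones. FEZF2 carries an EH1 motif, and TLE4 is a known marker of layer 6 corticothalamic neurons, which send axons from the cortex to the thalamus.

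The coding sequences differed in length. In the longest complete coding transcript of GENCODE M21 (mouse genome GRCm38), Tle1, Tle2, Tle3 and Tle4 held 780, 767, 783 and 773 codons before the stop, Tle6 held 581 and Aes held 197. Tle1 and Tle4 were the closest pair, with 79.9% identical bases over 2292 aligned coding bases. Tle3 shared 76.2% with Tle4 and 74.9% with Tle1, Tle2 shared between 70.2% and 71.5% with the other full-length members, and Tle6 shared between 56.8% and 58.4% with them. The longest run of bases that the Tle1 and Tle4 transcripts had in common was 68 bases, longer than a single read, and lay in coding exon 15 of 20 of both genes. It is shown because a read from it could belong to either gene. The same stretch is given for Tle3 and Tle2, with capitals at the bases that differ from Tle4. It differed at 7 of the 68 bases in Tle3 (exon 15 of 20) and at 10 of the 68 in Tle2 (exon 15 of 21). All are written 5′ to 3′ on the gene's own strand, and positions are those of GRCm38.
Tle4, chr19:14454805-14454872, minus strand: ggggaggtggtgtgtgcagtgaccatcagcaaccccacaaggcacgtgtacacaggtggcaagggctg
Tle1, chr4:72126252-72126319, minus strand: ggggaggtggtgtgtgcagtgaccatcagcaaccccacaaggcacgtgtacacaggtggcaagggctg
Tle3, chr9:61412383-61412450, plus strand: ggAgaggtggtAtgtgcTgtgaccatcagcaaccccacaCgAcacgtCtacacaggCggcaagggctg
Tle2, chr10:81587210-81587277, plus strand: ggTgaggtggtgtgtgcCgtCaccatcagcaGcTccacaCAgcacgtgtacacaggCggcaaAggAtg
Such shared sequence was a small part of each gene. Of all stretches of 50 bases in the annotated transcripts, 0.368% of those of Tle4 also occurred in another gene (Tle1), and 2.46% of those of Tle1 did (Tle4 and Gm11250). The share was 0.732% for Tle2 and 0.712% for Tle6, and it was 0 for Tle3 and Aes.

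The members lay on 4 chromosomes. Tle4 (ENSMUSG00000024642.16) lies at chr19:14448150-14598051 on the minus strand, Tle3 (ENSMUSG00000032280.16) at chr9:61372366-61418497 on the plus strand and Tle1 (ENSMUSG00000008305.18) at chr4:72117142-72200919 on the minus strand. The other 3 are neighbours on chromosome 10. Aes (ENSMUSG00000054452.10) spans 81559488-81566362 on the plus strand, Tle2 (ENSMUSG00000034771.15) spans 81574561-81590845 on the plus strand, and Tle6 (ENSMUSG00000034758.12) spans 81590904-81601073 on the minus strand. Aes and Tle2 are 8198 bp apart, and the ends of Tle2 and Tle6 are 58 bp apart. Exons of Tle1 overlap those of Gm11250 by 247 bp, and exons of Tle2 overlap those of Gm15917 by 98 bp, in both cases on the opposite strand. The use of strand in counting is not given in the sources used here, so values of Tle1 and Tle2 are uncertain by the reads of those stretches.

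The targeted gene followed the labels. Fezf2 stood at 1231.78, 1009.99 and 979.07 normalized counts (reads divided by a size factor for each library) in the Fezf2+/+ libraries and between 192.87 and 241.86 in the 4 Fezf2-/- libraries. The Fezf2-/-; Fezf2-EnR libraries had 907.00 and 1000.86. The table does not separate transcripts of the null alleles, which carry the knock-in, from those of the transgene. The libraries held between 18716575 and 25127623 reads assigned to genes. Xist, the RNA of the inactive X chromosome, was high in bc201, bc208 and bc209 (between 7895.46 and 12203.2 normalized counts) and at 58.92 or lower in the other libraries. Ddx3y on the Y chromosome ran the other way, from 1168.77 to 1600.27 in the latter 6 libraries and 4.22 or lower in bc201, bc208 and bc209. All Fezf2-/-; Fezf2-EnR libraries were thus of one kind and all Fezf2-/- libraries of the other, so genotype and sex-linked expression cannot be told apart in that comparison. The Fezf2+/+ group held both kinds.

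A pair of libraries of litter m3 stood apart in genes of striatal projection neurons, which lie beneath the cortex. The neuropeptide gene Tac1 had 317.36 normalized counts in bc204 (Fezf2-/-) and 170.25 in bc208 (Fezf2-/-; Fezf2-EnR), and 12.02 to 74.10 in the other 7 libraries. The dopamine receptor gene Drd2 had 173.75 and 101.55, beside 15.30 to 41.41. Penk, Rarb and Isl1 were likewise higher in both than in any other library, so that this held for 5 of the 6 striatal markers in the table, Ppp1r1b being the exception. The values of Tle4 and Tle3 are therefore also given without these libraries.

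Tle4 was the only member called in any comparison. Its normalized counts were 2860.65, 2641.76 and 2754.88 in the Fezf2+/+ libraries, 978.21, 977.40, 820.46 and 990.07 in the Fezf2-/- libraries, and 2805.63 and 3663.64 in the Fezf2-/-; Fezf2-EnR libraries. Every Fezf2-/- library was far below every library of both other groups. The Fezf2+/+ library bc201 lay above the lower of the Fezf2-/-; Fezf2-EnR libraries, so these groups overlapped. The group means were 2752.4 ± 109.5 (SD, n = 3), 941.5 ± 80.9 (SD, n = 4) and 3234.6 ± 606.7 (SD, n = 2).

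**Figure D1:**
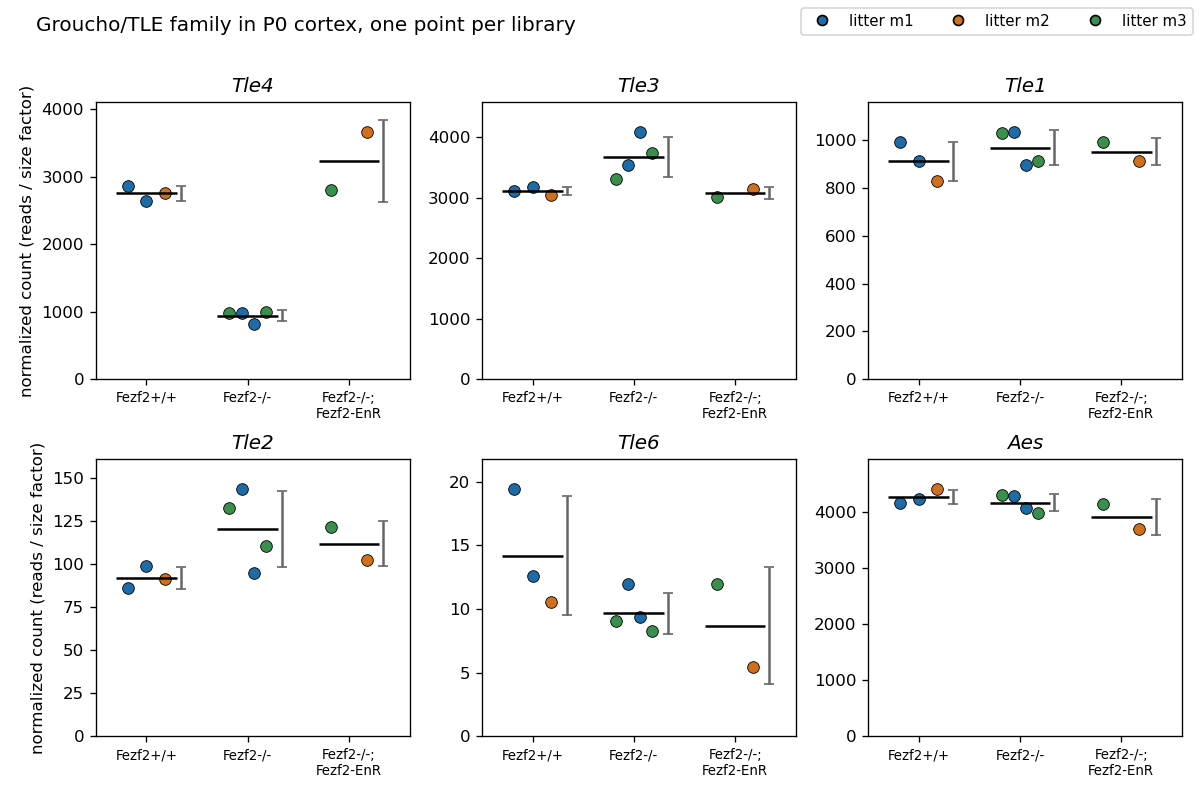
Normalized counts (reads divided by the size factor, vertical axis from 0) of the 6 family members in each library, by genotype. Points are libraries coloured by litter, black lines are group means and grey bars are ± 1 SD. Tle4 lies between 820.46 and 990.07 in the 4 Fezf2-/- libraries and at 2641.76 or higher in all others, and no other member shows a gap of that size.

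In Fezf2-/- against Fezf2+/+ cortices, Tle4 fell by 1.55 on the log2 scale (SE 0.097, 95% confidence interval -1.765 to -1.335), which is 2.93-fold lower (limma, adjusted p = 1.27e-05). It was 1 of 6 members called in this comparison, where 0.346% of the 16197 genes tested were called lower and 0.512% higher. At an unadjusted p under 0.05, 3 of the 6 members passed by limma (Tle4, Tle3 and Tle2), beside 10.8% of all genes. The libraries of these groups did not overlap, which also held, on the lower side, for 6.46% of all genes. An exact two-sided permutation test of Tle4 gave p = 0.0286, the smallest that its 35 splits allow. Without bc204 and bc208 the difference was -1.57 (limma, adjusted p = 6.32e-05). In bulk tissue, fewer cells of a type and less RNA per cell cannot be told apart.

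In Fezf2-/-; Fezf2-EnR against Fezf2-/- cortices, Tle4 was higher by 1.77 on the log2 scale (SE 0.11, interval 1.53 to 2.02), or 3.41-fold (adjusted p = 2.35e-05). It was again 1 of 6 members called, beside 0.333% of genes called higher and 0.432% called lower, and 2 members (Tle4 and Tle3) had an unadjusted p under 0.05, beside 16.9% of genes. Libraries did not overlap, as for 12.0% of genes on the higher side, and the exact permutation p was 0.0667, the smallest that 15 splits allow. The library bc208 gave 2805.63 and bc209 gave 3663.64, and without bc209 the difference from Fezf2-/- was 1.58, without bc208 1.96. With both bc204 and bc208 left out it was 1.98 (limma, adjusted p = 0.000257).

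Against Fezf2+/+, Tle4 in Fezf2-/-; Fezf2-EnR cortices differed by 0.22 (SE 0.116, interval -0.036 to 0.478; adjusted p = 0.323). The exact permutation test gave p = 0.2, where 0.1 is the smallest that 10 splits allow. This value turned on a single library. It was 0.41 (adjusted p = 0.0755) without bc208 and 0.03 (adjusted p = 0.928) without bc209. None of the 6 members was called in this comparison by limma, edgeR or DESeq2, and 0 had an unadjusted p under 0.05 by limma, beside 19.3% of all genes. DESeq2 called 3.96% of genes here. Over all genes, 0.0926% were called higher and 0.0247% lower. The groups of this comparison and the previous one share libraries, so the 3 comparisons are not independent of each other.

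The changes of Tle4 were also present between littermates. In litter m1, 2 Fezf2-/- libraries averaged 898.9 and 2 Fezf2+/+ libraries 2751.2, a log2 difference of -1.62. In litter m3, the Fezf2-/-; Fezf2-EnR library stood at 2805.63 and 2 Fezf2-/- libraries averaged 984.1, a log2 difference of 1.51. In litter m2, the Fezf2-/-; Fezf2-EnR library was above its Fezf2+/+ littermate by 0.41. Fezf2-/- libraries of the 2 litters that held them were close to each other, with m3 above m1 by 0.14. Among the Fezf2+/+ libraries, bc201, with high Xist, had 2860.65 and the other two, with high Ddx3y, had 2641.76 and 2754.88.

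Tle3, which encodes another full-length corepressor, was not called in any comparison, although its Fezf2-/- libraries stood apart. Its normalized counts were 3109.87, 3169.90 and 3042.59 in Fezf2+/+ libraries, 3310.23, 3543.49, 4083.55 and 3727.72 in Fezf2-/- libraries and 3011.72 and 3147.91 in Fezf2-/-; Fezf2-EnR libraries. All 4 Fezf2-/- libraries were above all 5 others, and the latter lay close together. The group means were 3107.5 ± 63.7 (SD, n = 3), 3666.2 ± 326.5 (SD, n = 4) and 3079.8 ± 96.3 (SD, n = 2).

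Between Fezf2-/- and Fezf2+/+ the log2 difference of Tle3 was 0.23 (SE 0.07, interval 0.08 to 0.389), 1.18-fold, with an unadjusted p of 0.00664 and an adjusted p of 0.227 by limma. The exact permutation p was 0.0571. Between Fezf2-/-; Fezf2-EnR and Fezf2-/- the difference was -0.25 (interval -0.422 to -0.073, unadjusted p = 0.00996, adjusted p = 0.182, limma), with an exact permutation p of 0.133. The absence of overlap was shared by 6.53% of all genes in the first comparison, on the higher side, and by 12.6% in the second, on the lower side. Against Fezf2+/+, Fezf2-/-; Fezf2-EnR cortices differed in Tle3 by -0.01 (interval -0.197 to 0.171, adjusted p = 0.95). Without bc204 and bc208 the difference was 0.28 between Fezf2-/- and Fezf2+/+ (adjusted p = 0.107), -0.26 between Fezf2-/-; Fezf2-EnR and Fezf2-/- (adjusted p = 0.124) and 0.02 for the remaining comparison (adjusted p = 0.924). In litter m1 the 2 Fezf2-/- libraries averaged 3813.5 and the 2 Fezf2+/+ libraries 3139.9. In litter m3 the Fezf2-/-; Fezf2-EnR library stood at 3011.72 and the 2 Fezf2-/- libraries averaged 3519.0.

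Tle1, the closest relative of Tle4 by coding sequence, had overlapping libraries in every comparison. Its normalized counts were 991.00, 914.25 and 828.36 in Fezf2+/+, 1030.43, 1035.15, 896.57 and 914.49 in Fezf2-/-, and 991.63 and 913.45 in Fezf2-/-; Fezf2-EnR libraries. Groups and litters were mixed along this range. The log2 difference was 0.09 between Fezf2-/- and Fezf2+/+ (interval -0.096 to 0.275, adjusted p = 0.755), 0.07 between Fezf2-/-; Fezf2-EnR and Fezf2+/+ (interval -0.155 to 0.288, adjusted p = 0.748) and -0.02 between Fezf2-/-; Fezf2-EnR and Fezf2-/- (interval -0.233 to 0.187, adjusted p = 0.928). The intervals of the comparisons with Fezf2-/- therefore leave out a change of the size seen there for Tle4. In Fezf2-/-; Fezf2-EnR against Fezf2+/+, the Tle4 difference of 0.22 lay within the Tle1 interval.

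Tle2 was a low gene, with 86.17, 98.90 and 91.69 normalized counts in Fezf2+/+, 132.57, 143.83, 94.87 and 110.47 in Fezf2-/-, and 121.46 and 102.71 in Fezf2-/-; Fezf2-EnR libraries. The Fezf2-/- library bc206 lay within the Fezf2+/+ range and the other 3 above it. The mean of 120.4 ± 22.0 (SD, n = 4) in Fezf2-/- was 1.29-fold that of 92.3 ± 6.38 (SD, n = 3) in Fezf2+/+ on the fitted scale, a log2 difference of 0.37 (interval 0.021 to 0.709) with an unadjusted p of 0.0397 and an adjusted p of 0.43 by limma. Both Fezf2-/-; Fezf2-EnR libraries lay above all 3 Fezf2+/+ libraries, as did those of 17.3% of all genes, and the log2 difference was 0.28 (interval -0.136 to 0.687, adjusted p = 0.443). It was -0.09 against Fezf2-/- (interval -0.48 to 0.301, adjusted p = 0.833). Counting error was sizeable here, since Tle2 rested on 87 to 133 reads a library.

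Tle6 was near the limit of what these libraries resolve, with 5 to 23 reads each. Its normalized counts were 19.43, 12.62 and 10.54 in Fezf2+/+, 9.04, 11.99, 9.38 and 8.31 in Fezf2-/-, and 11.95 and 5.46 in Fezf2-/-; Fezf2-EnR libraries. The groups overlapped. The log2 differences were -0.48 (interval -1.186 to 0.231, adjusted p = 0.651) for Fezf2-/- against Fezf2+/+, -0.69 (interval -1.537 to 0.157, adjusted p = 0.346) for Fezf2-/-; Fezf2-EnR against Fezf2+/+ and -0.21 (interval -1.016 to 0.591, adjusted p = 0.805) for the remaining comparison. Counting alone gives a coefficient of variation between 25.8% and 34.3% at these group means, so a change of moderate size was not detectable at this depth.

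Aes, the short member without WD40 repeats, had the highest group means of normalized counts in the family. It stood at 4151.57, 4236.71 and 4408.44 in Fezf2+/+, 4309.53, 4278.99, 4078.33 and 3988.53 in Fezf2-/-, and 4142.74 and 3689.86 in Fezf2-/-; Fezf2-EnR libraries. The Fezf2+/+ and Fezf2-/- libraries overlapped. Their log2 difference of -0.04 had the narrowest interval of the family in that comparison (-0.163 to 0.093, adjusted p = 0.87). Of the Fezf2-/-; Fezf2-EnR libraries, bc208 lay just below the lowest Fezf2+/+ library and bc209 further below, and libraries did not overlap on the lower side for 17.3% of all genes. The log2 difference was -0.13 (interval -0.279 to 0.028, adjusted p = 0.345), and it was -0.04 without bc209 and -0.21 without bc208 (adjusted p = 0.819 and 0.135). Aes differed from Fezf2-/- by -0.09 (interval -0.236 to 0.055, adjusted p = 0.507).

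**Figure D2:**
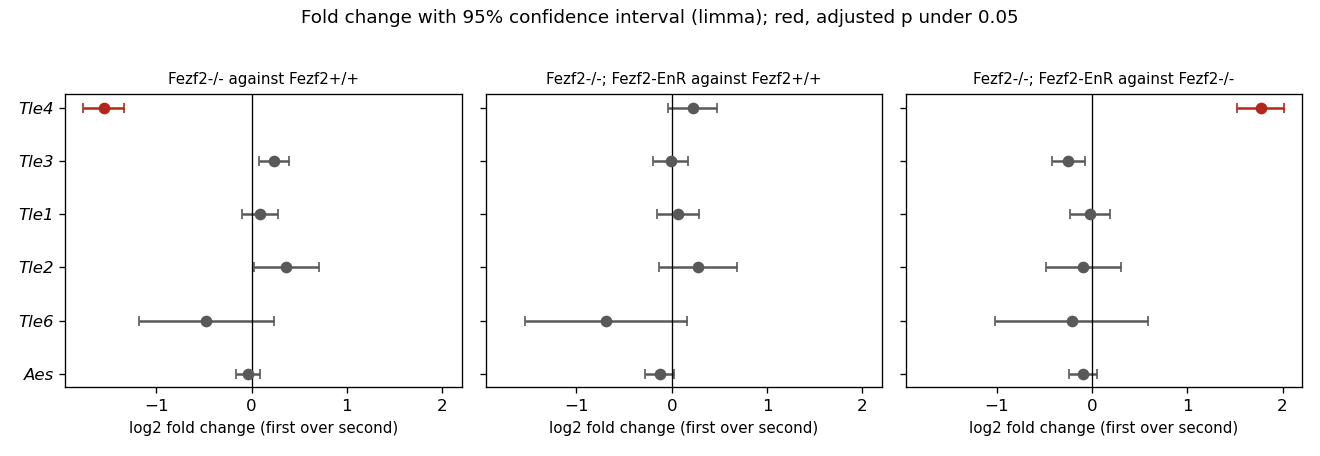
Log2 fold changes (horizontal axis, first genotype over second) of the 6 members in the 3 comparisons, with 95% confidence intervals from limma. Red points have an adjusted p under 0.05. Tle4 is the only red point, at -1.55 in Fezf2-/- against Fezf2+/+ and at 1.77 in Fezf2-/-; Fezf2-EnR against Fezf2-/-, and Tle6 has the widest intervals.

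Levels of the members were set beside each other per length, as normalized counts per kilobase of annotated exon. In Fezf2+/+ cortices the order was Aes (1279.4 ± 39.2), Tle4 (482.7 ± 19.2), Tle3 (266.7 ± 5.47), Tle1 (104.6 ± 9.34), Tle2 (14.8 ± 1.03) and Tle6 (4.6 ± 1.51, all SD, n = 3), and no neighbours in that order had overlapping libraries. In Fezf2-/- cortices Tle3 (314.6 ± 28.0) stood above Tle4 (165.1 ± 14.2), which was still above Tle1 (111.3 ± 8.48, all SD, n = 4). In Fezf2-/-; Fezf2-EnR cortices Tle4 (567.3 ± 106.4) was again above Tle3 (264.3 ± 8.26, both SD, n = 2).

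The order of Tle4 and its neighbours depended on the length used. Per kilobase of the longest coding transcript, Tle4 in Fezf2+/+ cortices was at 605.6 ± 24.1 and Tle3 at 597.0 ± 12.2, with overlapping libraries. In Fezf2-/- cortices Tle4 was then at 207.2 ± 17.8, with libraries overlapping those of Tle1 at 221.8 ± 16.9, and Tle3 at 704.4 ± 62.7.

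The make-up of the full-length members is described by group, with no test. Tle4 gave 55.6% ± 1.28 (SD, n = 3) of the summed per-kilobase level of Tle1, Tle2, Tle3 and Tle4 in Fezf2+/+ cortices, 27.1% ± 2.42 (SD, n = 4) in Fezf2-/- cortices and 58.9% ± 4.57 (SD, n = 2) in Fezf2-/-; Fezf2-EnR cortices. By the longest coding transcript these shares were 41.9%, 17.6% and 45.4%. The sum itself was 868.8 ± 23.7, 610.4 ± 10.3 and 958.9 ± 106.2 per kilobase of exon in the same order of groups. It was lower in every Fezf2-/- library (595.2 to 617.5) than in any other (854.1 or higher).

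The ratio of Tle4 to Tle3 normalized counts, which does not depend on the size factor, was 0.92, 0.833 and 0.905 in Fezf2+/+ libraries. It was 0.296, 0.276, 0.201 and 0.266 in Fezf2-/- and 0.932 and 1.16 in Fezf2-/-; Fezf2-EnR libraries. The ratio of Tle4 to Tle1 was 2.89 to 3.33, 0.915 to 1.08 and 2.83 to 4.01 in these groups. For both ratios each Fezf2-/- library lay below every library of the other groups.

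**Figure D3:**
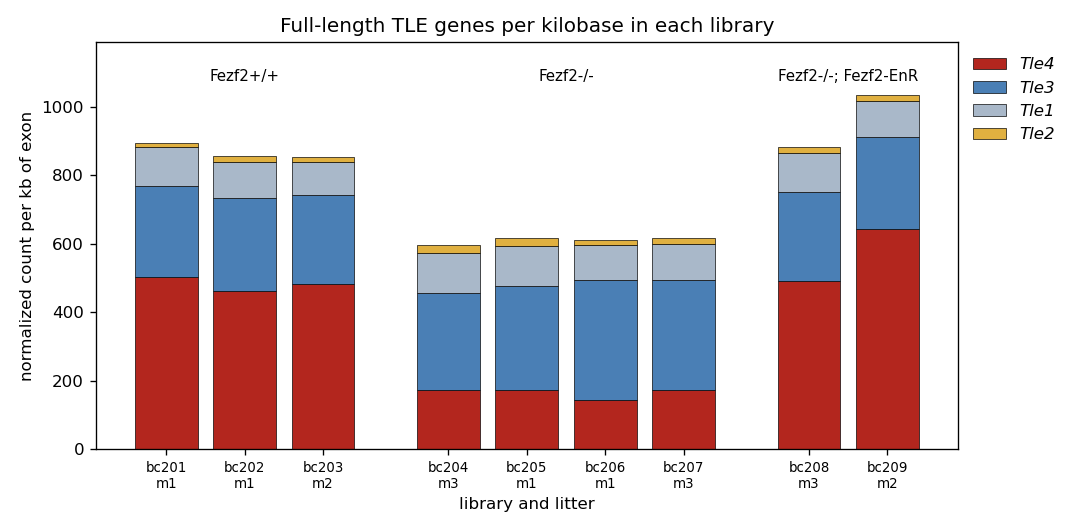
Stacked levels of Tle4, Tle3, Tle1 and Tle2 in each library, in normalized counts per kilobase of annotated exon (vertical axis from 0), with the litter under each library. The summed level is 595.2 to 617.5 in the 4 Fezf2-/- libraries and 854.1 or higher in the others, and the Tle4 segment accounts for the lower bars.

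The genes most like each member over the 9 libraries were ranked by Pearson's r of log2 values, among 12959 other genes with a mean of at least 50 (12960 for Tle6). These are descriptions over libraries that share genotype and litter. Tle4 was most like Ngfr (r = 0.986), which encodes the p75 neurotrophin receptor, Tcerg1l (r = 0.981) and Hs3st4 (r = 0.979). The paper names Tcerg1l as a marker of subcerebral neurons. Hs3st4, a heparan sulfate sulfotransferase gene, is on the list of corticothalamic markers. All 3 nearest genes were called lower in Fezf2-/- than in Fezf2+/+ cortices. Ngfr had means of 356.0 ± 29.8 (SD, n = 3), 58.5 ± 10.1 (SD, n = 4) and 357.0 ± 85.3 (SD, n = 2) in Fezf2+/+, Fezf2-/- and Fezf2-/-; Fezf2-EnR. Hs3st4 ran from 2233.2 to 2397.68, from 570.26 to 614.55 and from 1823.96 to 2200.59 in the libraries of these groups. The r of Tle4 with Fezf2 was 0.972 and with Tle3 -0.859.

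Tle3 was most like Chst11 (r = 0.973), a chondroitin sulfotransferase gene, Ly75 (r = 0.972) and Il1rap (r = 0.949), the interleukin-1 receptor accessory protein. None of these was called. Chst11 had means of 1196.3 ± 28.1 (SD, n = 3), 1464.5 ± 101.9 (SD, n = 4) and 1162.4 ± 52.8 (SD, n = 2), and log2 differences of 0.29 (adjusted p = 0.103) for Fezf2-/- against Fezf2+/+ and -0.33 (adjusted p = 0.0904) for Fezf2-/-; Fezf2-EnR against Fezf2-/-, both by limma.

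The other members had nearest genes that were not called in any comparison. These were Pde1c, Smpdl3a and Asl for Tle1 (r from 0.918 to 0.951), Pofut1, Mfge8 and Sox21 for Tle2 (r from 0.908 to 0.918), Sfswap, Nelfcd and Zfp513 for Tle6 (r from 0.946 to 0.978) and Kctd17, Plekhj1 and Gpc1 for Aes (r from 0.964 to 0.978). The r between members was 0.688 for Tle1 and Tle2, 0.606 for Tle6 and Aes, 0.16 for Aes and Tle2 and -0.197 for Tle2 and Tle6, the last 3 being the neighbours on chromosome 10.

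Transcription factors that can recruit TLE proteins were examined as a list of 30 genes, of which 24 were in the table and 19 were tested. Pax7, a homeodomain factor of the dorsal midbrain and spinal cord, and Fezf2 itself were the genes called. Pax7 had 0 reads in the 3 Fezf2+/+ libraries, 39.17, 81.72, 66.72 and 42.36 normalized counts in the Fezf2-/- libraries and 0 and 1.09 with the transgene. It was called higher in Fezf2-/- than in Fezf2+/+ (limma, adjusted p = 1.89e-05) and lower in Fezf2-/-; Fezf2-EnR than in Fezf2-/- (adjusted p = 0.00021). Fezf2 was called lower by 2.30 and higher by 2.14 on the log2 scale in the same comparisons. These Fezf2 calls were set by the genotypes compared, so Pax7 was the only call of the list not fixed by the design. The transgene carries only the DNA-binding domain of FEZF2, and the paper describes its product as not depending on TLE corepressors. The higher Fezf2 value with the transgene therefore does not show a return of full-length FEZF2. Whether the fusion protein recruits TLE proteins was not tested.

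The other recruiting factors were not called. The counts that follow include Fezf2, whose calls were set by the genotypes. In Fezf2-/- against Fezf2+/+ 1 of the 19 was higher and 1 lower, 17 were not called, 3 had an unadjusted p under 0.05 (10.8% of all genes did), and the median log2 difference was 0.21, beside 0.0 over all genes tested. In Fezf2-/-; Fezf2-EnR against Fezf2-/- the counts of calls were the same, 4 had an unadjusted p under 0.05 (16.9% of all genes did), and the median was -0.10, beside 0.003 over all genes. Against Fezf2+/+, Fezf2-/-; Fezf2-EnR had 0 called by limma, edgeR or DESeq2 and 1 with an unadjusted p under 0.05, beside 19.3% of all genes. DESeq2 called Runx2 in addition in the first 2 of these comparisons, in which it called 1.94% and 2.78% of all genes.

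Among the abundant recruiting factors besides Fezf2 were the Notch-related basic helix-loop-helix genes Hes6 and Hey1. Hes6 had means of 799.5 ± 33.0 (SD, n = 3), 743.3 ± 82.9 (SD, n = 4) and 656.3 ± 19.5 (SD, n = 2) in Fezf2+/+, Fezf2-/- and Fezf2-/-; Fezf2-EnR cortices. Hes6 differed by -0.11 (interval -0.313 to 0.09) and Hey1 by -0.003 (interval -0.191 to 0.185) in Fezf2-/- against Fezf2+/+. The genes Hesx1, Runx3, Nkx2-9, Nkx6-1, Gsc and Foxd3 were not analysed here, and Fezf1, Pax2, Pax5, En1 and En2 had means under 10.

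Other corepressors and histone deacetylases, the enzymes through which TLE proteins and related complexes act, were examined as a list of 25 genes, all of them tested. In Fezf2-/- against Fezf2+/+ 0 were called by limma and by edgeR, 4 had an unadjusted p under 0.05, beside 10.8% of all genes, and DESeq2 called 1 (Bcor), beside 1.94%. The median log2 difference was 0.07. For Fezf2-/-; Fezf2-EnR against Fezf2+/+ 0 were called by limma, edgeR or DESeq2, 9 had an unadjusted p under 0.05, beside 19.3% of all genes, and the median was 0.13, beside -0.005 over all genes.

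When Fezf2-/-; Fezf2-EnR was set against Fezf2-/-, 1 of the 25 was called, Nab1, a corepressor of EGR factors. It had 936.09, 801.68 and 949.56 normalized counts in Fezf2+/+, 753.24, 724.61, 667.21 and 807.34 in Fezf2-/- and 1010.55 and 1258.73 in Fezf2-/-; Fezf2-EnR libraries, and it was higher by 0.61 on the log2 scale than in Fezf2-/- (limma, adjusted p = 0.0389). DESeq2 also called Ctbp2. At an unadjusted p under 0.05 by limma, 4 of the 25 passed, beside 16.9% of all genes. The median of the list was 0.08.

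The most abundant of these corepressors differed little in Fezf2-/- against Fezf2+/+. The log2 difference was 0.004 for Ncor1, a nuclear receptor corepressor (interval -0.148 to 0.156), -0.02 for Trim28, the partner of KRAB zinc-finger proteins (interval -0.132 to 0.103), -0.12 for Hdac2, a histone deacetylase (interval -0.276 to 0.028), and -0.02 for Ctbp1, the C-terminal binding protein (interval -0.155 to 0.119).

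**Figure D4:**
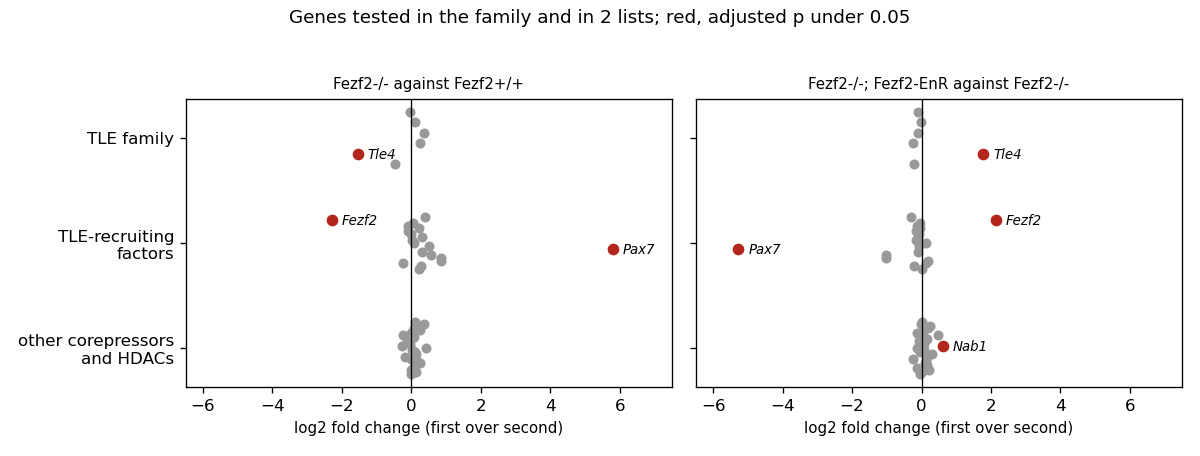
Log2 fold changes (horizontal axis) of the tested TLE family members, TLE-recruiting factors and other corepressors with histone deacetylases (HDACs), in Fezf2-/- against Fezf2+/+ and in Fezf2-/-; Fezf2-EnR against Fezf2-/-. Each point is a gene, and red named points have an adjusted p under 0.05. Pax7 has no reads in the Fezf2+/+ libraries, so its position depends on the constant added before the log, and apart from Tle4, Fezf2, Pax7 and Nab1 no gene is red.

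Markers of cell types moved with some of these values. Of 8 corticothalamic markers, 4 were called lower in Fezf2-/- than in Fezf2+/+ (Zfpm2, Syt6, Nxph3 and Hs3st4) and the same 4 were called higher in Fezf2-/-; Fezf2-EnR than in Fezf2-/-. Over all genes, 0.346% were called lower in the first of these comparisons and 0.333% higher in the second. Zfpm2 had a log2 difference of -1.61 and Hs3st4 one of -1.98 in the first comparison, beside -1.55 for Tle4. Of the markers not called, Tbr1 and Sox5, regulators of the same neurons, had differences of -0.02 (limma adjusted p = 0.953) and -0.07 (adjusted p = 0.888). Foxp2 and Ntsr1 were lower by 1.44 (adjusted p = 0.123) and 0.17 (adjusted p = 0.268). For Foxp2, bc204 stood at 635.73 normalized counts and the other Fezf2-/- libraries at 161.14 to 275.68. The summed level of the 8 markers was 17902.5 to 18605.2 in Fezf2+/+, 12656.4 to 14277.1 in Fezf2-/- and 17802.5 to 21460.6 in Fezf2-/-; Fezf2-EnR libraries.

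Of 8 subcerebral markers, Fezf2 among them, 4 were called lower in Fezf2-/- than in Fezf2+/+ and 3 higher in Fezf2-/-; Fezf2-EnR than in Fezf2-/-. Fezf2 was among the called genes in both comparisons, as set by the genotypes. The shares of all genes were 0.346% and 0.333%. None of 9 callosal markers was called in any comparison by limma, and their sums overlapped (54719.2 to 58498.6, 48656.2 to 64197.3 and 47134.2 to 54789.6 in the same order of groups). Sums of 7 markers of GABAergic interneurons were 6042.0 to 6336.6, 7570.8 to 8666.3 and 6225.9 to 7118.6, higher in every Fezf2-/- library as Tle3 was, with 0 of 7 called. The same held for 5 markers of thalamic neurons, with sums of 1148.9 to 1219.4, 1481.4 to 1920.3 and 1125.4 to 1430.7. Of these, Slc17a6, a vesicular glutamate transporter gene, was called higher in Fezf2-/- than in Fezf2+/+ (log2 difference 0.59, limma adjusted p = 0.0367), as were 0.512% of all genes. Slc17a6 and Rora made up most of this sum, with means of 1076.0 and 483.9 in Fezf2-/-. Gbx2 and Lhx9 were low there, with means of 2.47 and 14.1. Among single genes, 6.53% had all Fezf2-/- libraries above all Fezf2+/+ libraries. For 12.6%, all Fezf2-/-; Fezf2-EnR libraries were below all Fezf2-/- libraries. Sums of 4 markers of oligodendrocyte precursors were likewise higher in every Fezf2-/- library, at 4568.1 to 4854.5, 5147.4 to 5431.5 and 5091.6 to 5134.3, with none called. Striatal markers did not follow genotype in this way, and 6 of them summed to 1088.7 to 1311.9, 483.4 to 2218.5 and 811.9 to 1761.2, with bc204 and bc208 at the upper ends. Sums of 8 progenitor markers were 3409.3 to 4412.6, 3934.5 to 4881.0 and 5004.9 to 6291.4. Both Fezf2-/-; Fezf2-EnR libraries were above all others, and 1 marker was called higher than in Fezf2-/- (0.333% of all genes were). Of 4 meningeal markers, Lum was called lower in Fezf2-/- than in Fezf2+/+ (limma, adjusted p = 0.0176), with a Fezf2-/- mean of 3.14. With the transgene, 1 of the 4 was called higher than in Fezf2-/-. No endothelial or microglial marker was called. Sums of 5 red blood cell genes were 5696.8 to 8386.1, 5107.0 to 8882.7 and 4202.5 to 4554.2. The choroid plexus genes were near 0, with sums of 4.38 to 23.1 over all libraries. The part of these cell types in the values of Tle4 and Tle3 was not tested.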

How the data were processed

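RNA from P0 cortices was made into poly(A) libraries and sequenced as paired-end reads of 50 bases. The authors deposited 1 table of 24624 genes by 9 libraries, whose values are a normalized signal, namely read counts divided by the DESeq size factor of each library, to 2 decimals. The submitters' processing notes name mm10, Bowtie, STAR and DESeq. The counting tool, annotation release and use of strand are not given in the sources used here. Gene names are those of the table, and 24595 identifiers matched GENCODE M21, which gave coordinates and lengths.

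As the planned count test needs raw counts, log2(value + 1) was tested instead with limma 3.58.1 in R 4.3.3 (eBayes with trend), in a fit of all 9 libraries with a coefficient per genotype, over 16197 genes, namely those whose mean reached 10. Fold changes are on this scale, so that changes of low genes are understated. The Benjamini-Hochberg adjusted p-values cover all genes tested, with calls under 0.05, and all 6 members passed the filter. Tle6 passed it only through the Fezf2+/+ libraries, the only group in which its mean reached 10. The 2 Fezf2-/-; Fezf2-EnR libraries rely on a spread shared by all groups. Single genes were also tested with exact two-sided permutation tests over libraries. Whole reads were recovered in all 9 libraries (100.0% of values between 20 and 200 fell within 0.1 read of a whole number), and edgeR 4.0.16 and DESeq2 1.42.0 were run on them as alternatives. They called 142 and 315 genes, respectively, in Fezf2-/- against Fezf2+/+, beside 139 by limma. The scripts were tested on simulated data.

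The members and lists were chosen with earlier results of these data known. Named genes are the members, Fezf2, list genes called in Fezf2-/- against Fezf2+/+ or in Fezf2-/-; Fezf2-EnR against Fezf2-/-, the 4 most abundant genes of each list, and the 3 genes most like each member, except that 1 of the abundant list genes is not reported here. Alternatives were other constants, filters and scalings, the 2 groups compared alone, litter as a block, and each library left out. Litter m1 alone for all genes, lengths by the longest coding transcript and leaving out bc204 and bc208 together were added after seeing the data. The methods give 4 Fezf2+/+ mice, while 3 are in the labels and the table. Proteins were not compared.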

Additional observations from a re-analysis of the deposited data

Results flagged for a closer look

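The lowest Fezf2-/- library for Tle4, bc206 of litter m1, stood at 820.46 normalized counts, while the other 3 lay between 977.40 and 990.07. The gap below it was 0.925 of the whole range of the 4 libraries. Chance flags about 1 in 20 groups of this kind, and 7 genes were looked at. Without bc206 the log2 difference of Tle4 was -1.49 in Fezf2-/- against Fezf2+/+ and 1.71 in Fezf2-/-; Fezf2-EnR against Fezf2-/-. The same library had the highest Tle3 value, 4083.55, and the lowest Tle1 and Tle2 values of its group, 896.57 and 94.87.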

How the results depend on the processing

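Of 359 values of the 6 members under the alternatives, 346 kept their direction and side of the threshold, 13 changed sign and 0 changed their call. Leaving out 1 library at a time gave Tle4 -1.5793 to -1.4854 in Fezf2-/- against Fezf2+/+ and 1.5785 to 1.9633 in Fezf2-/-; Fezf2-EnR against Fezf2-/-, with adjusted p no higher than 0.000234 and 0.00038 under any alternative run, and 0.0284 to 0.4132 in Fezf2-/-; Fezf2-EnR against Fezf2+/+. At an unadjusted p under 0.05, 3 members passed in the first comparison and 2 in the second, beside 10.8% and 16.9% of all genes. None of the differences that changed sign was called, and apart from that of Tle6 they were near 0. Tle6 was at -0.21 in the main fit of Fezf2-/-; Fezf2-EnR against Fezf2-/-, so its direction was unstable. With litter as a block, the sign changes were Tle3 in Fezf2-/-; Fezf2-EnR against Fezf2+/+ (0.0516) and, in Fezf2-/-; Fezf2-EnR against Fezf2-/-, Tle1 (0.0617) and Tle6 (0.1763). With 1 library left out, Tle3 and Tle1 ran from -0.0449 to 0.0189 and from -0.0002 to 0.129 in Fezf2-/-; Fezf2-EnR against Fezf2+/+, and Tle1, Tle2 and Tle6 from -0.0822 to 0.0362, -0.2094 to 0.0304 and -0.7138 to 0.2895 against Fezf2-/-. With bc204 and bc208 left out together, an alternative added after seeing the data, Tle3 was 0.0189 in Fezf2-/-; Fezf2-EnR against Fezf2+/+, and the genes called over the whole table numbered 127, 275 and 788 in the 3 comparisons. The cause was not tested. Over all genes, calls in Fezf2-/- against Fezf2+/+ numbered 139, with 220 from the 2 groups alone, 315 by DESeq2, 239 in litter m1 alone, 1752 unadjusted and 66 (without bc201) to 218 (without bc209) with a library left out. In Fezf2-/-; Fezf2-EnR against Fezf2+/+ they numbered 19, with 10 at a mean of at least 50, 11 from the 2 groups alone, 32 with the litter block, 641 by DESeq2, 3118 unadjusted and 8 (without bc209) to 492 (without bc208). Against Fezf2-/- they numbered 124, with 67, 450 and 2741 for the 2 groups alone, DESeq2 and unadjusted p, and 21 (without bc209) to 1085 (without bc208). Where a Fezf2-/-; Fezf2-EnR library was left out, the lone one was assumed to vary like the other groups. Tle6 was not tested at a mean of at least 50 or in some fits with a library left out. The groups share no replicate numbers, so libraries were paired only by litter. With litter as a block Tle4 was -1.502, 0.181 and 1.6831 (adjusted p 6.99e-05, 0.479 and 0.000127 by limma).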
